A study of Mus musculus with 12 samples.

Results

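The genes described here are the zinc finger genes of the deposited table, chosen by name: every deposited gene whose mouse symbol starts with Zfp, Zbtb, Zkscan, Zscan, Zik or Znf. Of the 982 deposited genes, 12 met this rule, namely Zfp239, Zfp365, Zfp37, Zfp422, Zfp459, Zfp518b, Zfp598, Zfp651, Zfp704, Zfp979, Zfpm1 and Zscan22. The rule used no measured value, but the table itself did. All 982 deposited genes already differed between the mean of the edited lines and the control, so the values below describe members that changed somewhere, not the family at large. The GENCODE mouse annotation (release M21) lists 470 protein-coding genes with these symbols, of which 2.55% were in the table, and 4.09% of all 22028 annotated protein-coding genes were in it. No Zbtb, Zkscan, Zik or Znf gene was among the 12 members, although 41 annotated genes carry a Zbtb symbol and 11 a Zkscan symbol.

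The study edited Resf1, the gene of retroelement silencing factor 1, by CRISPR-Cas9 in 6DT1 cells. These mouse mammary cancer cells come from a tumor of MMTV-Myc mice, in which a mammary tumor virus promoter drives Myc. The 12 libraries formed 4 groups of 3: sgControl, labelled wild type and given a control guide, and sg1, sg2 and sg3, each given a different guide against Resf1. Groups follow the sample titles, and the treatment text of the labels describes knockdown by shRNA against the human gene, which does not match these edited mouse lines. All 4 groups shared the 6DT1 background, and the study's methods name a lentiviral vector for the guides. By the same methods each edited line was expanded from a single cell, so a guide and the clone that carries it cannot be told apart, and the 3 libraries of a group were dishes of 1 line whose spread may be technical. The level of Resf1 was not analysed here, so the editing was not checked again. The study's methods describe checks of the knockout clones by genomic PCR, Sanger sequencing and western blot. Values are normalized counts, that is, estimated reads per gene divided by a size factor for the library. The table's sums were 2069298 to 2713951 per library, which cover only the listed genes and are not the depth.

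Classical zinc finger proteins of the C2H2 type hold a zinc ion with a pair of cysteines and a pair of histidines in each finger, and a row of such fingers reads a stretch of DNA. In vertebrates many of them also carry a KRAB domain, which binds TRIM28. TRIM28 brings in the histone H3 lysine 9 methyltransferase SETDB1 and HP1 proteins, and this is how KRAB zinc finger proteins silence retroelements in early embryos and embryonic stem cells. RESF1 is known to work with SETDB1 in the silencing of endogenous retroviruses, which is the reason to look at this family here. Not every gene with such a symbol is a DNA-binding factor, and several of the 12 members act at the ribosome, with a partner protein or at the centrosome.

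The members were first compared by their fingers, read by translating the longest annotated coding sequence of each gene. With a finger written as a cysteine, 2 to 4 residues, a cysteine, 12 residues, a histidine, 3 to 5 residues and a histidine, Zfp37 held 12 fingers, Zfp239, Zfp651 and Zscan22 held 7 each, Zfp422 held 5, and Zfp518b and Zfpm1 held 4 each. Zfp459 and Zfp979 held 3 each, Zfp598 and Zfp704 held 1 each, and Zfp365 held 0. The median was 4 fingers per member against 9 per annotated gene of the family. A KRAB box, by its conserved core, was found in Zfp459 and Zfp979, 2 of the 12 members, and in 190 of the 470 annotated genes, or 40.4%. A SCAN domain, a dimerization module, was found in Zscan22 and in 35 annotated genes. The pattern misses fingers that have lost a cysteine or a histidine, so a member with degenerate fingers is counted low. The KRAB and SCAN searches each used 1 short pattern on 1 coding sequence per gene, so divergent boxes would be missed.

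Coding bases of fingers are given here for 6 members with strings of fingers, to show the bases between the zinc-binding codons, whose spacing the search pattern itself fixed. They run 5' to 3' on the coding strand (GRCm38, GENCODE M21 coding sequences), each lies in 1 exon, and capitals mark the codons of the cysteines and histidines that hold the zinc.
Zfp979 finger 1, chr4:147613330-147613392, minus strand: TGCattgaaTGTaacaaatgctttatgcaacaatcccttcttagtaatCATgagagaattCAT
Zfp979 finger 2, chr4:147613246-147613308, minus strand: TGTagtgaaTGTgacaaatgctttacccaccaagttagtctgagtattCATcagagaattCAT
Zfp979 finger 3, chr4:147613078-147613140, minus strand: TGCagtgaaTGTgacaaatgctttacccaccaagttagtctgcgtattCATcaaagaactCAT
Zfp459 finger 1, chr13:67408579-67408641, minus strand: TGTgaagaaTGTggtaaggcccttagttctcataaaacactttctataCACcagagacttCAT
Zfp37 finger 10, chr4:62191362-62191424, minus strand: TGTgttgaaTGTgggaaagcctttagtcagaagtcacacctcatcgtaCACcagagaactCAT
Zscan22 finger 1, chr7:12906728-12906790, plus strand: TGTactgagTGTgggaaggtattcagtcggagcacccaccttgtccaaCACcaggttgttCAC
Zfp239 finger 1, chr6:117871324-117871386, plus strand: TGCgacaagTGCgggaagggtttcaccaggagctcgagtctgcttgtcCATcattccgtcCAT
Zfp422 finger 1, chr6:116626806-116626868, minus strand: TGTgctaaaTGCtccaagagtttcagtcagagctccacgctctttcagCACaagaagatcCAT
All 3 fingers found in Zfp979 are printed, and 1 finger of each other gene. Zfp979 shares sequence with other genes: 24.6% of its transcript's 50-base words occur in 21 other annotated genes, among them Zfp534, Zfp600, Zfp978 and Zfp980. That share was 7.52% for Zfp422, 5.45% for Zfp459, 0.26% for Zfp704 and 0 for the 8 other members. The shared words of Zfp422 occur in 106 other genes and those of Zfp459 in 230. Reads of the first 3 genes may therefore be split among genes that share these words, and their values are uncertain to that extent. Estimated reads were whole to within 0.05 reads in 11 of 12 libraries for Zfp979, in 8 for Zfp459 and in 3 for Zfp422. Members without shared words ran from 0 such libraries (Zfpm1) to 7 (Zfp651). The count therefore does not show whether reads were split.

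Promoters are given next for members that fell, rose or differed by line, since genes that move together invite a look at their start sites. Each runs from 250 bases before to 50 after the start (RefSeq, GRCm38.p6), 5' to 3' in the direction of the gene, and capitals mark GGGCGG or its reverse complement CCGCCC, the core of the GC box, and CACGTG, an E-box that reads the same on both strands.
Zfp979 promoter, chr4:147642459-147642758, minus strand: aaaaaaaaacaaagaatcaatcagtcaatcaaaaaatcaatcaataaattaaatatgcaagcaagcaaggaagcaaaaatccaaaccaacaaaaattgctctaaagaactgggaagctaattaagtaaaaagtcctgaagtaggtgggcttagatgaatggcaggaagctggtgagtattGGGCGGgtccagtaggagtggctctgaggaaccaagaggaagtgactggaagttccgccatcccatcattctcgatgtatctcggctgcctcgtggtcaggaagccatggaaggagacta
Zfp518b promoter, chr5:38684777-38685076, minus strand: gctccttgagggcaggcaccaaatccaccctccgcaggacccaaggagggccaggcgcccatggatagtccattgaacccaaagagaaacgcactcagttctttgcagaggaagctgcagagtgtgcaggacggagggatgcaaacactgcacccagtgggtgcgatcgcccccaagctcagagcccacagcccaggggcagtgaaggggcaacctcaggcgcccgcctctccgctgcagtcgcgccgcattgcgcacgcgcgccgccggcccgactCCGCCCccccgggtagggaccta
Zfp598 promoter, chr17:24669437-24669736, plus strand: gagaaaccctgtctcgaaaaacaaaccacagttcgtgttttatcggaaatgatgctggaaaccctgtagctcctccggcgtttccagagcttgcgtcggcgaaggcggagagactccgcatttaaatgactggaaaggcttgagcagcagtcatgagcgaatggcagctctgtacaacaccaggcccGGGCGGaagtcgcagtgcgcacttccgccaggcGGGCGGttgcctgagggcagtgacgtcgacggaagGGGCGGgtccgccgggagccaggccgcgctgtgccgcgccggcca
Zfp365 promoter, chr10:67912613-67912912, minus strand: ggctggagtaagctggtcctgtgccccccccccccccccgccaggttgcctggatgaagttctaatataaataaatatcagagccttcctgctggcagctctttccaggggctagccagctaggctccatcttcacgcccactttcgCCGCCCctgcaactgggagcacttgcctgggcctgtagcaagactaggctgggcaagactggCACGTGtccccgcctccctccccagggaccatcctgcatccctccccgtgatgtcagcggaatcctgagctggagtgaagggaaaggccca
Zscan22 promoter, chr7:12897559-12897858, plus strand: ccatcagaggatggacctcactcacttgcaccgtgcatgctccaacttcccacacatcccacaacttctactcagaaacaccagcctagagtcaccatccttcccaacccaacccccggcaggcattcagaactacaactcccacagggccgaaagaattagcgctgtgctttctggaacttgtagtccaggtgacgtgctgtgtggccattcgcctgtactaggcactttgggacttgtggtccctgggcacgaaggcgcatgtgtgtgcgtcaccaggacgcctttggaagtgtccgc
Zfp459 promoter, chr13:67421369-67421668, minus strand: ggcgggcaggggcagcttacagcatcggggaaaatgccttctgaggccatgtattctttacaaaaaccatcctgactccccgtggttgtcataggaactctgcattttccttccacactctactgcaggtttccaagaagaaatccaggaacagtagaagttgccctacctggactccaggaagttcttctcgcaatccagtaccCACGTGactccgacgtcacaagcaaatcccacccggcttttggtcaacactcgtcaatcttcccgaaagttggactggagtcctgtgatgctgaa
Zfp651 promoter, chr9:121759783-121760082, plus strand: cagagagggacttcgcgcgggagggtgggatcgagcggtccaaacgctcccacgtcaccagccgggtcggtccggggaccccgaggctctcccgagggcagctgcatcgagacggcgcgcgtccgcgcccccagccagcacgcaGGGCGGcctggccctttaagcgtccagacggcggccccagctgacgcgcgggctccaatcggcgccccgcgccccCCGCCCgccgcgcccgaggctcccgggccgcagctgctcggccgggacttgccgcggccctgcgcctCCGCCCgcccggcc
RefSeq promoters were matched for 11 of the 12 members, 13 windows in all, and Zfp704 was not matched. GGGCGG on either strand was in 7 of these 13 windows and in 35.7% of all 32851 mouse promoter windows of this length. CACGTG was in 2, those of Zfp365 and Zfp459, and in 7.15% of all windows. A run of 4 tracts of at least 3 G with loops of 1 to 7 bases, on either strand, was in the windows of Zfp365, Zfp651 and Zfpm1 and in 18.6% of all, and such a run can overlap a GC box. These matches are letters in a window and not binding sites.

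**Figure D1:**
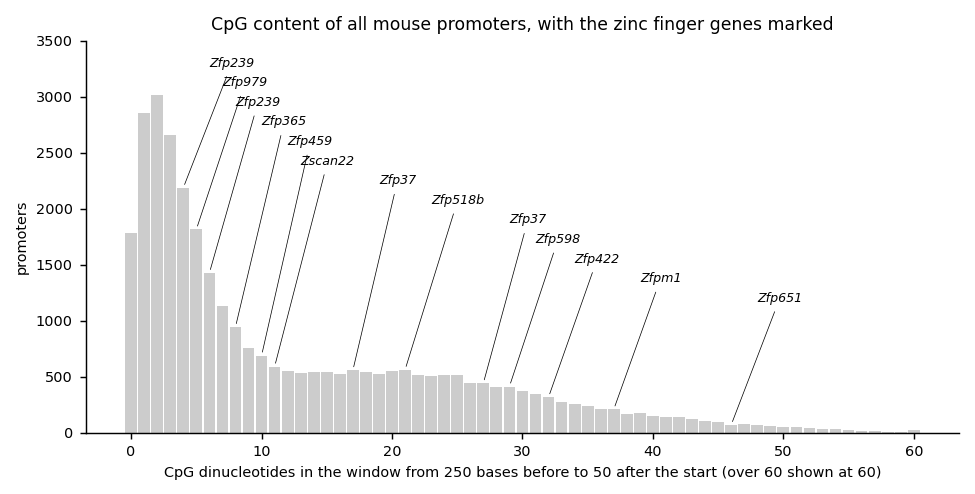
CpG dinucleotides per promoter window (x axis) against the number of mouse promoters with that count (y axis, grey bars), with the 13 windows of the zinc finger genes marked by name (Zfp37 and Zfp239 have 2 each). The members ran from 4 CpG in a Zfp239 window to 46 in that of Zfp651, and the median of all promoters was 7.

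By CpG count the members were spread from 4 to 46, and 31.4% of all promoters had fewer CpG than any member. The Zfp979 window held 5 CpG and that of Zfp651 held 46, more than 98.4% of all promoters. The members that fell in all lines lay at different points, with 5 in Zfp979, 21 in Zfp518b and 29 in Zfp598, and so were those that rose, with 8 in Zfp365, 11 in Zscan22 and 17 and 27 in the Zfp37 windows.

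Each edited line was then compared with sgControl. With sg1, 4 members rose, 7 fell and 1 did not pass the test (limma on log2(value + 1), adjusted p at most 0.05 over all 982 genes). With sg2, 4 rose, 7 fell and 1 did not pass, and with sg3, 3 rose, 5 fell and 4 did not pass. Of all deposited genes, 50.1% were called higher and 39.1% lower with sg1, 30.2% and 29.4% with sg2, and 26.5% and 33.4% with sg3. The split depended on the scaling: with median-of-ratios, upper-quartile and table-total scaling, 2 members were called higher and 8 lower with sg1, beside 35.9% to 42.2% and 42.3% to 42.8% of the table. Table-total scaling left 1 higher and 8 lower with sg2 (13.5% and 48.2% of the table) and 2 higher and 6 lower with sg3 (14.5% and 38.4%), while both other scalings gave 3 higher and 8 lower with sg2 and kept the counts of sg3. The 11 members called with sg1 stand beside 89.2% of all deposited genes, the 11 with sg2 beside 59.7% and the 8 with sg3 beside 59.9%, so with this choice of genes a call is common, and nothing particular to the members is read from these counts. On the mean of the 3 lines, the contrast on which the table was chosen, 4 members were higher and 8 lower than sgControl, beside 50.9% and 49.1% of all deposited genes, and the median log2 fold change was -0.29 in the members and 0.14 in the table. For sg1, sg2 and sg3 in turn, the members had a median log2 fold change of -0.36, -0.25 and -0.07, and that of all deposited genes was 0.20, -0.02 and -0.03. Sizes without sign had a median of 0.63, 0.48 and 0.53 in the members and of 0.48, 0.23 and 0.23 in the table. In bulk RNA, fewer cells expressing a gene and less RNA per cell cannot be told apart.

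**Figure D2:**
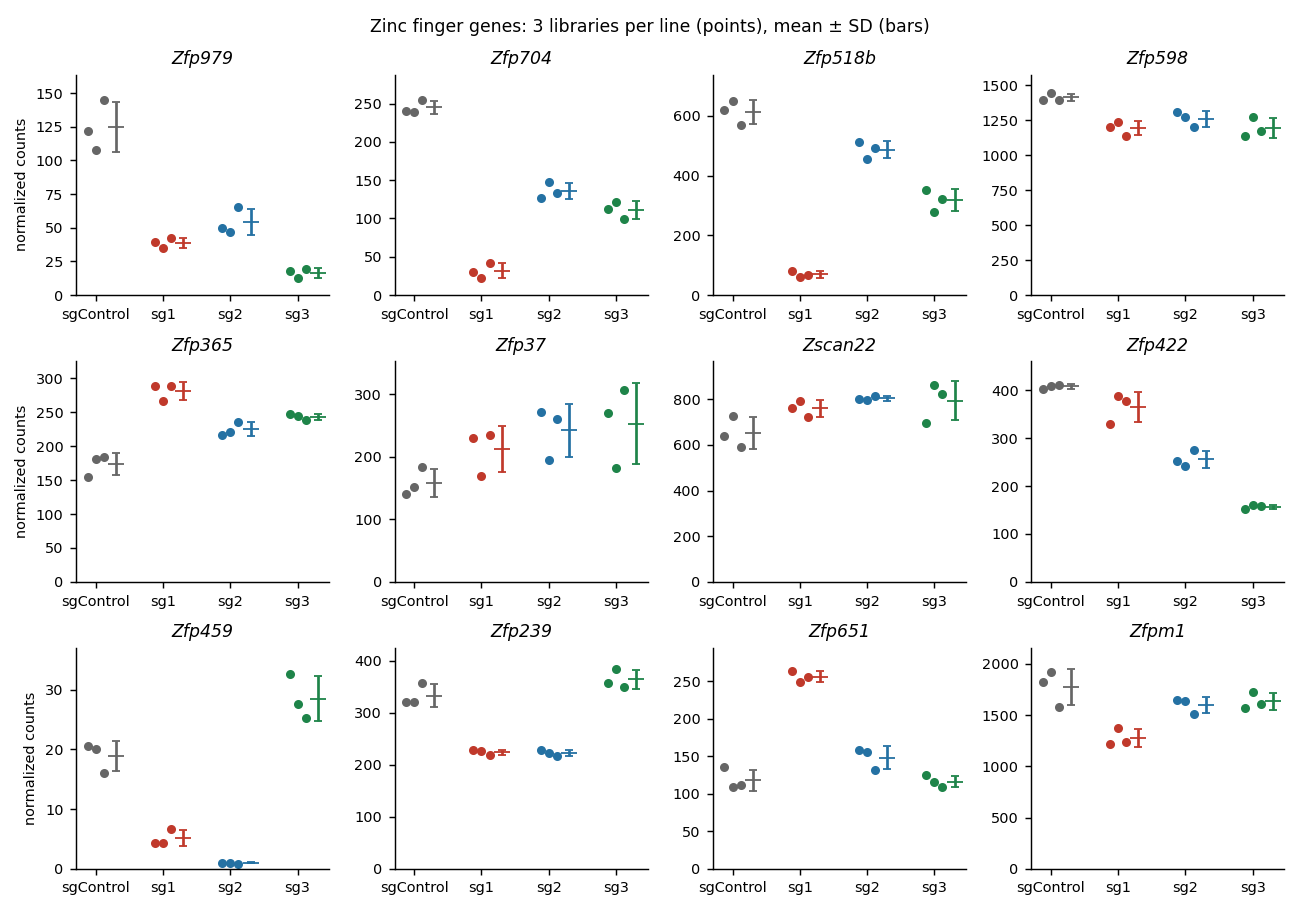
Normalized counts (y axis, from 0) of the 12 zinc finger genes in the 3 libraries of each line (points), with the mean and SD of the group (bar and whiskers to the right). The edited libraries lie below all controls in every line for Zfp979, Zfp704, Zfp518b and Zfp598, and Zfp459 runs from about 1 in sg2 to 32.6 in sg3.

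Of the 12 members, 4 fell in all 3 lines, Zfp979, Zfp704, Zfp518b and Zfp598, where 11.8% of all deposited genes did. Another 3 rose in all 3 lines, Zfp365, Zfp37 and Zscan22, where 14.1% did. No member was called higher in a line and lower in another, where 9.57% of deposited genes were. The 3 comparisons share the sgControl libraries, and the count of 7 rests on them: without sgControl replicate 1 it was 3 (Zfp365, Zfp704 and Zfp979), and without sgControl replicate 2 it was 4 (those and Zscan22).

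Zfp979, also known as Ssm1b, is a KRAB zinc finger gene known as a strain-specific modifier of transgene DNA methylation, and it lies on chromosome 4 in a cluster with 10 other genes of the family within 1 Mb. Its normalized counts were 122, 108 and 145 in sgControl, 39.3, 34.9 and 42.0 in sg1, 50.1, 46.8 and 65.4 in sg2, and 17.5, 12.5 and 19.2 in sg3. Every edited library was below every control library, and the sg3 libraries were the lowest of all. Group means were 3.22-fold lower in sg1, 2.31-fold lower in sg2 and 7.62-fold lower in sg3, with log2 fold changes of -1.66, -1.20 and -2.87 (SE 0.21; limma adjusted p 1.66e-06, 0.000149 and 3.7e-09). In sg3 it ranked 24 from the lowest of the 982 genes. The sg3 level was also below that of sg1 by a log2 difference of -1.21 (95% interval -1.65 to -0.77, adjusted p 6.51e-05). An annotated transcript, Gm13155, overlaps Zfp979 on the same strand, so their reads may not be separable.

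Zfp704, a GLI-like factor first described as a glucocorticoid-induced gene, lies on chromosome 3. Zfp704 measured 241, 239 and 255 normalized counts in sgControl, 29.8, 22.7 and 42.0 in sg1, 127, 147 and 133 in sg2, and 113, 122 and 99.4 in sg3. The groups did not overlap, and the sg1 libraries were far below those of the other lines. Means were 7.79-fold lower in sg1, 1.80-fold lower in sg2 and 2.20-fold lower in sg3, with log2 fold changes of -2.97, -0.85 and -1.13 (SE 0.18; adjusted p 1.65e-10, 0.000658 and 4.84e-05). The difference between sg3 and sg2 was -0.29 on the log2 scale, with a 95% interval of -0.66 to 0.08 (adjusted p 0.269). Annotated transcripts C030034L19Rik and Gm38001 overlap Zfp704 on the opposite strand, and whether the counting used strand is not given in the sources used here.

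Zfp518b, whose product is known to associate with the histone H3 lysine 9 methyltransferases Ehmt1 and Ehmt2, lies on chromosome 5. Libraries held 619, 650.3 and 569 normalized counts in sgControl, 80.8, 59.2 and 66.3 in sg1, 511, 455 and 492 in sg2, and 352, 278 and 321 in sg3. The groups were separate from each other in every pair, in the order sgControl, sg2, sg3 and sg1. Means were 8.91-fold lower in sg1, 1.26-fold lower in sg2 and 1.93-fold lower in sg3, with log2 fold changes of -3.15, -0.33 and -0.95 (SE 0.11; adjusted p 3.41e-13, 0.0203 and 2.5e-06). With sg1 it ranked 15 from the lowest of all deposited genes and Zfp704 ranked 17. The call with sg2 was lost without sgControl replicate 1, sgControl replicate 2 or sg2 replicate 2, at adjusted p of 0.0558, 0.0713 and 0.0724, while those with sg1 and sg3 were kept in all 20 alternatives. Table-total scaling gave -0.54 with sg2.

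Zfp598 is known less as a DNA-binding factor than as a ubiquitin ligase that marks collided ribosomes. It lies on chromosome 17 and was among the most abundant members. Its normalized counts were 1396, 1444 and 1398 in sgControl, 1205, 1236 and 1138 in sg1, 1312, 1274 and 1200 in sg2, and 1139, 1272 and 1172 in sg3. Every edited library was below every control, but by a small margin, and the 3 edited lines overlapped each other. The log2 fold changes were -0.24, -0.16 and -0.24 (SE 0.06; adjusted p 0.0011, 0.0267 and 0.00267). Table-total scaling moved them to -0.46, -0.37 and -0.35. The difference among the lines did not pass the test (adjusted p 0.356), though it did under median-of-ratios (0.0111) and upper-quartile scaling (0.0237), and the sg3 level minus the sg1 level was 0.00 on the log2 scale, with a 95% interval of -0.12 to 0.13. The call with sg2 was lost without sgControl replicate 1, sgControl replicate 2 or sg2 replicate 3.

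**Figure D3:**
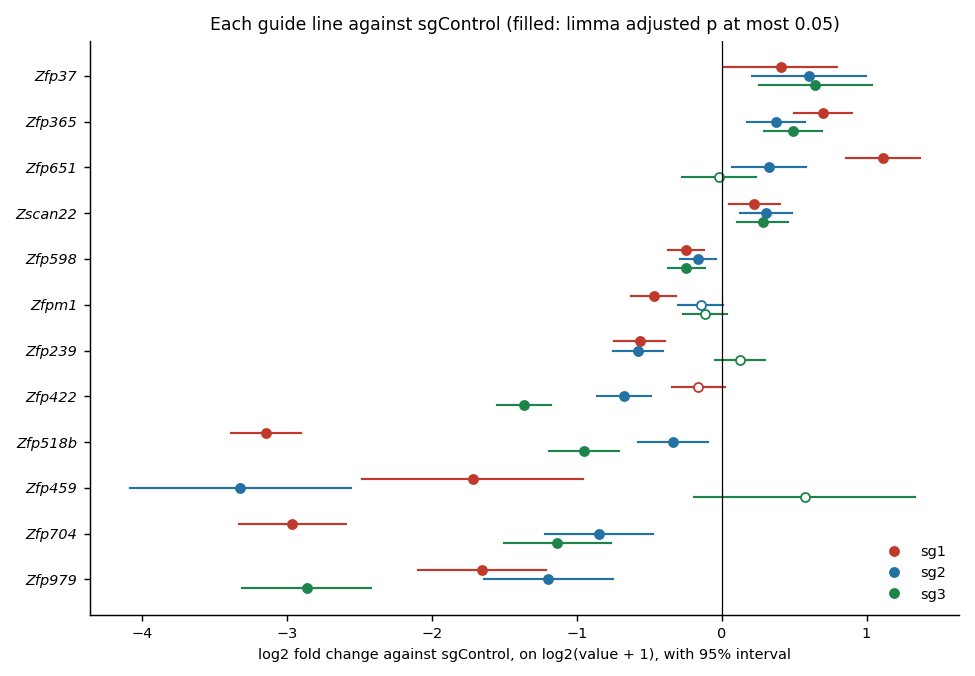
Log2 fold change of each zinc finger gene against sgControl (x axis, on log2(value + 1)) in sg1, sg2 and sg3 with 95% intervals, genes ordered by the mean of the 3. Filled points passed limma at an adjusted p of at most 0.05. The intervals of Zfp518b and Zfp704 in sg1 lie far below those of the other lines, and Zfp459 lies at -3.32 in sg2 and 0.57 in sg3.

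The 3 members that rose in all lines did so by less than those that fell most. Zfp365, a coiled-coil protein of the centrosome linked to genome stability and known as a p53 target, lies on chromosome 10. In normalized counts it was at 155, 181 and 184 in sgControl, 289, 267 and 288 in sg1, 217, 220.1 and 236 in sg2, and 248, 244 and 239 in sg3. Each edited library was above each control. The log2 fold changes were 0.70, 0.37 and 0.49 (SE 0.09; adjusted p 3.47e-06, 0.00334 and 0.000414). Dividing by the table total in place of the authors' scaling left 0.17 with sg2 (adjusted p 0.305).

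Zfp37, on chromosome 4, has a long row of fingers. Its normalized counts were 141, 151 and 183 in sgControl, 229.7, 169.7 and 235 in sg1, 272, 194 and 261 in sg2, and 270, 182 and 307 in sg3. Replicate 2 was the lowest library of each edited line and, in sg1 and sg3, overlapped the controls. The log2 fold changes were 0.41, 0.60 and 0.65 (SE 0.18; adjusted p 0.0462, 0.0115 and 0.00774). The call with sg1 was lost in 9 of 20 alternatives. Among them were median-of-ratios (0.26), upper-quartile (0.27) and table-total scaling (0.20). Others were leaving out sgControl replicate 1 (0.33), sgControl replicate 2 (0.38), sg1 replicate 1 (0.34), sg1 replicate 3 (0.33) or sg3 replicate 1 (0.41). Table-total scaling moved the value with sg2 to 0.40, which still passed. The call with sg2 was lost without sgControl replicate 1 (adjusted p 0.0527), and that with sg3 without sg3 replicate 3 (adjusted p 0.0504).

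Zscan22, with a SCAN domain and a row of fingers, lies on chromosome 7 with 9 other genes of the family within 1 Mb. Zscan22 measured 639, 727 and 590.1 normalized counts in sgControl, 763, 794 and 723 in sg1, 802, 795 and 814 in sg2, and 698, 862 and 821 in sg3. The sg2 libraries were all above the controls, while sg1 and sg3 each had a library among them. The log2 fold changes were 0.23, 0.31 and 0.28 (SE 0.08; adjusted p 0.0192, 0.00579 and 0.00965). These calls depended on the scaling: with sg1 the value was 0.07 under median-of-ratios, 0.09 under upper-quartile and 0.01 under table-total scaling, none of which passed, and table-total scaling also ended the calls with sg2 (0.10) and sg3 (0.18). The call with sg1 was also lost without sgControl replicate 1 (adjusted p 0.0528), sgControl replicate 3 (0.104) or sg1 replicate 2 (0.0681). The difference among the lines did not pass the test for Zfp37 (adjusted p 0.445) or Zscan22 (adjusted p 0.641; 0.0489 under median-of-ratios scaling).

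Levels differed among sg1, sg2 and sg3 for 9 of the 12 members (limma F test over the 3 lines, adjusted p at most 0.05), beside 75.3% of all deposited genes, so differing between lines is the common state of this table. The control means do not enter this comparison, although the control libraries add to its estimate of the spread. The smallest adjusted p were those of Zfp518b (6.96e-13), Zfp422 (4.37e-09) and Zfp704 (8.7e-09).

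Zfp422, also known as Krox-26 and described in tooth development, lies on chromosome 6. Its normalized counts were 402, 409 and 412 in sgControl, 330.4, 389 and 377 in sg1, 252, 241 and 275 in sg2, and 153, 160.4 and 159 in sg3. The 4 groups did not overlap, and the order was sgControl, sg1, sg2 and sg3, which is not that of Zfp518b or Zfp704. Log2 fold changes were -0.16, -0.67 and -1.37 (SE 0.09; adjusted p 0.093, 7.02e-06 and 6.65e-10), so the fall passed the test with sg2 and sg3. With sg1 it also passed under the other scalings, at -0.31 (median-of-ratios), -0.37 (table total) and -0.30 (upper quartile), and at -0.16 without the trend and robust settings. Over all 20 alternatives the value with sg1 ran from -0.37 to -0.09, with adjusted p up to 0.378. Means were 1.59-fold lower in sg2 and 2.59-fold lower in sg3.

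Zfp459, known as Rslcan-14, is the other member in which a KRAB box was found. It lies on chromosome 13 with 22 genes of the family within 1 Mb. It was the least abundant member, at a mean of 18.8 ± 2.51 normalized counts in sgControl, with 5.08 ± 1.34 in sg1 and 0.971 ± 0.089 in sg2 but 28.5 ± 3.72 in sg3 (SD, n = 3). Each sg2 library held 1.00 estimated read, while the control libraries together held 60 reads. The ratio of the control mean to the sg2 mean was 19.4, with a 95% counting interval of 6.37 to 97.3, which covers counting error only. In sg1 the mean was 3.71-fold lower (log2 fold change -1.72, SE 0.36, adjusted p 0.000318). In sg3 all libraries were above the controls, from 25.3 to 32.6 against 16.0 to 20.6, but the log2 fold change of 0.57 did not pass the test (adjusted p 0.176; 0.0106 without the trend and robust settings). The sg3 level exceeded that of sg2 by a log2 difference of 3.90 (95% interval 3.13 to 4.66, adjusted p 9.76e-08). At so few reads the fitted change with sg2, -3.32 on log2(value + 1), depends on the pseudocount and was -1.99 with a pseudocount of 5. The members in which a KRAB box was found had unlike patterns: Zfp979 was lowest in sg3, where Zfp459 was highest. An annotated transcript, Gm48900, overlaps Zfp459 on the opposite strand.

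Zfp239, known as Mok2 and able to bind DNA and RNA, lies on chromosome 6. Mean normalized counts were 224 ± 4.67 in sg1 and 222 ± 5.85 in sg2, against 333 ± 21.3 in sgControl and 364 ± 18.1 in sg3 (SD, n = 3). All sg1 and sg2 libraries were below the controls and those of sg3 overlapped them. The log2 fold changes were -0.57 and -0.58 with sg1 and sg2 (SE 0.08; adjusted p 7.65e-06 and 1.93e-05) and 0.13 with sg3 (adjusted p 0.185). The sg2 level minus the sg1 level was -0.01 on the log2 scale, with a 95% interval of -0.19 to 0.16, and sg3 exceeded sg1 by 0.69 (adjusted p 8.7e-07).

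Zfp651, the mouse counterpart of human ZBTB47, which pairs a BTB domain with fingers, lies on chromosome 9. Mean normalized counts were 256 ± 7.27 in sg1 and 148 ± 15.2 in sg2, against 118 ± 14.2 in sgControl and 116 ± 7.66 in sg3 (SD, n = 3). It was 2.16-fold higher in sg1, where all libraries were above the controls (log2 fold change 1.11, SE 0.12, adjusted p 2.78e-07). With sg2 the log2 fold change was 0.32 (adjusted p 0.03) and the libraries overlapped the controls, and this call was lost in 7 of 20 alternatives, with 0.12 (adjusted p 0.536) under table-total scaling. Leaving out sgControl replicate 2 or 3, or sg2 replicate 1 or 2, also ended it, at adjusted p of 0.0978, 0.0816, 0.0981 and 0.0902. With sg3 the log2 fold change was -0.02, with a 95% interval of -0.28 to 0.23. The transcript E530011L22Rik overlaps Zfp651 on the opposite strand.

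Zfpm1, known as FOG1, is a cofactor of GATA factors that binds the NuRD complex, and it lies on chromosome 8. Mean normalized counts were 1279 ± 86.2 in sg1, against 1775 ± 179 in sgControl, 1599.9 ± 76.5 in sg2 and 1635 ± 83.4 in sg3 (SD, n = 3). The fall passed the test with sg1 (log2 fold change -0.47, SE 0.07, adjusted p 1.59e-05), where all libraries were below the controls. It was -0.15 with sg2 (adjusted p 0.091; 0.0254 with the replicate block, a fit that pairs libraries by replicate number) and -0.11 with sg3 (adjusted p 0.177), and those libraries overlapped the controls. Without sgControl replicate 3, the lowest control, the values with sg2 and sg3 passed the test (-0.23, adjusted p 0.0119, and -0.20, adjusted p 0.0247). Table-total scaling also brought both past the threshold, at -0.35 and -0.22, and the value with sg2 passed under median-of-ratios (-0.19, adjusted p 0.0349) and upper-quartile scaling (-0.20, adjusted p 0.027) as well. At the other end of the 20 alternatives the values were -0.09 with sg2 and -0.05 with sg3, and adjusted p reached 0.338 and 0.545. The transcript Gm20388 overlaps Zfpm1 on the same strand.

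**Figure D4:**
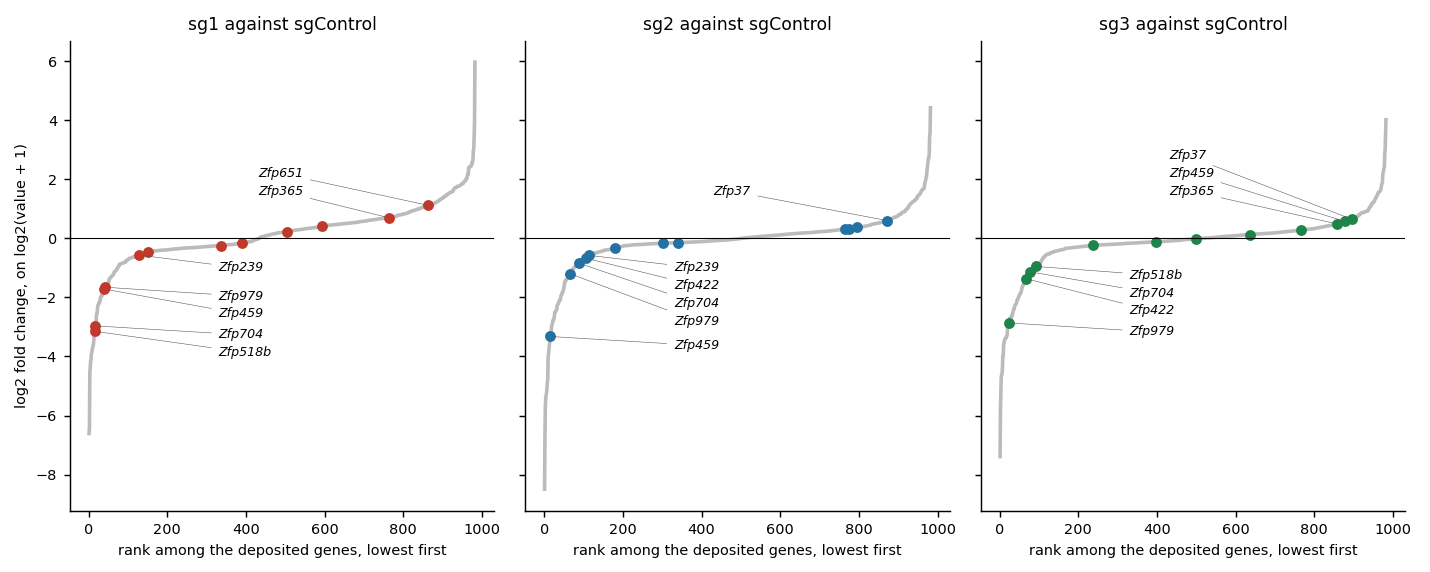
Log2 fold changes of all 982 deposited genes in rank order (grey line) for sg1, sg2 and sg3 against sgControl, with the 12 zinc finger genes as points and those beyond about 0.5 named. Zfp518b and Zfp704 lie at the low end in sg1, Zfp459 in sg2 (rank 16) and Zfp979 in sg3, and no member lies at the high end of any line.

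At the high end, the closest members to the top were Zfp37 and Zfp459 with sg3, at ranks 88 and 106 from the highest. Per kilobase of the longest transcript, the control level of the members ran from 5.65 normalized counts in Zfp459 to 524 in Zfpm1, with 421 in Zfp598 and 218 in Zscan22. Of the 4 members that fell in all lines, Zfp598 stood near the top of this order and Zfp704, at 17.7, near its bottom. A G-quadruplex pattern, written as above, was found in the longest transcript of 5 members on the strand opposite to the transcript (Zfp518b, Zfp598, Zfp651, Zfp704 and Zfpm1) and of Zfp704 on its own strand, where 32.4% and 26.4% of the deposited genes held it.

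Deposited genes within 1 Mb of a member moved with it in some cases and against it in others. Beside Zfp37, which rose, Slc31a2, of the copper transporter family, was at 0.61 with sg1, 0.68 with sg2 and 0.47 with sg3 in log2 fold change, the scale of all values of neighbours here. All of these passed the test, but the call with sg1 was lost under table-total scaling (0.40), and that with sg3 in 4 of 20 alternatives (table-total scaling and without sgControl replicate 1, sgControl replicate 2 or sg3 replicate 1, the last at 0.31). Rnf183, also beside Zfp37, rose with sg1 (0.69) and was 0.19 and 0.26 with sg2 and sg3, which did not pass. Beside Zfp365, which rose, Reep3 was 0.21, 0.12 and 0.09. Its calls with sg1 and sg2 were lost under all 3 other scalings, and table-total scaling turned them to -0.0044 and -0.083. That with sg2 was also lost without sgControl replicate 1, sgControl replicate 3, sg2 replicate 2 or sg2 replicate 3.

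Beside Zfp598, which fell, Paqr4 rose with sg1 (0.79) and sg3 (0.46) in all 20 alternatives, and was 0.04 with sg2. Slc9a3r2, also beside Zfp598, fell with sg1 and sg2 by 1.13 and 1.43 on the log2 scale but was 0.57 with sg3, a call lost under table-total scaling and without sgControl replicate 3, sg3 replicate 2 or sg3 replicate 3. Beside Zfp422, which was lowest in sg3, Plxnd1 rose with sg1 (1.05), was 0.03 with sg2, and passed at 0.29 with sg3, where table-total scaling ended the call (0.19). Rassf4, also beside Zfp422, was -0.86, -1.08 and -0.28. Its call with sg1 was lost without sgControl replicate 1, sgControl replicate 3, sg1 replicate 2 or sg1 replicate 3, that with sg2 without sgControl replicate 3 or sg2 replicate 1, and the value with sg3 did not pass (adjusted p 0.465). Without sgControl replicate 3 the value of Rassf4 with sg1 was -0.53. Beside Zfp704, which fell, Tpd52 was -0.04 with sg1, which did not pass, and 0.25 and 0.17 with sg2 and sg3, which passed but were 0.05 and 0.07 under table-total scaling.

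Beside Zfp979, which fell, Srm, the gene of spermidine synthase, fell with sg1 by 0.45 on the log2 scale and was -0.10 with sg2 (adjusted p 0.23). Its value with sg3, -0.19, passed but was lost in 5 of 20 alternatives (no trend, and without sgControl replicate 1, sgControl replicate 2, sg3 replicate 1 or sg3 replicate 3), and was -0.13 without sgControl replicate 2. Beside Zfpm1, lowest in sg1, Rpl13, a ribosomal protein gene, was -0.19, -0.21 and -0.18, with the call of sg3 lost without sgControl replicate 3 or sg3 replicate 1. Table-total scaling moved Rpl13 to -0.40, -0.41 and -0.28. Mvd, an enzyme of the mevalonate pathway beside Zfpm1, was -0.67, -0.47 and -0.54. Its call with sg1 was kept in all 20 alternatives, that with sg2 was lost without sgControl replicate 1, sgControl replicate 3, sg2 replicate 2 or sg2 replicate 3, and that with sg3 without sgControl replicate 3.

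KRAB and BTB zinc finger proteins act through corepressors, a few of which were measured. Of 44 annotated genes of KRAB corepressors and heterochromatin, 3 were in the table, 1 of which rose and 1 fell with each guide. Cbx5, which encodes HP1 alpha, was 10267 ± 2.43 in sgControl and 15829.6 ± 250.1 in sg1 (SD, n = 3), a log2 fold change of 0.62 (adjusted p 1.24e-09), with -0.01 in sg2 and 0.04 in sg3. Table-total scaling gave 0.41 for Cbx5 with sg1. Mbd3, of the NuRD complex, fell in all lines, by 0.14, 0.18 and 0.26 on the log2 scale (adjusted p 0.0199, 0.0106 and 0.00078), and the call with sg1 was lost without sgControl replicate 2 (0.0594) or sg1 replicate 3 (0.0903), and that with sg2 without sg2 replicate 3 (0.0618). Other scalings gave larger falls of Mbd3, with log2 fold changes of -0.30 (median-of-ratios), -0.28 (upper quartile) and -0.36 (table total) with sg1 and -0.38 (table total) with sg2. Trim24, a relative of TRIM28, rose with sg2 and sg3, with log2 fold changes of 0.40 and 0.33, and was 0.11 with sg1 (adjusted p 0.101). Under table-total scaling the rise of Trim24 with sg2 no longer passed (0.19, adjusted p 0.0788). Trim28 and Setdb1 were not analysed here. Of 14 BTB corepressor genes 1 was deposited, Nacc2, which rose with sg1 by a log2 fold change of 1.09 (adjusted p 6.62e-08).

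Of 112 other C2H2 factors 3 were deposited. Zeb1, a repressor of epithelial genes, rose with sg2 and sg3 by log2 fold changes of 0.22 and 0.17 (adjusted p 0.0102 and 0.0313) and was 0.13 with sg1 (adjusted p 0.0614), and under table-total scaling neither call was kept (0.01 and 0.07). Without sgControl replicate 1 both calls of Zeb1 were lost (adjusted p 0.0501 and 0.12), the one with sg2 also without sg2 replicate 3 (0.0655), and the one with sg3 in 7 of 20 alternatives, among them without sgControl replicate 2, sg3 replicate 1 or sg3 replicate 3. Plagl2 fell with sg1 by 0.46 on the log2 scale (adjusted p 1.82e-06). Tshz1 passed the test with sg1 and sg3, with log2 fold changes of 0.28 and 0.14, and table-total scaling left 0.06 and 0.04 and ended both calls. The value of Tshz1 with sg1 was also lower under median-of-ratios (0.12) and upper-quartile scaling (0.14), which kept the call. The call of Tshz1 with sg3 was lost in 5 of 20 alternatives, which include upper-quartile scaling (adjusted p 0.051) and leaving out sgControl replicate 2 (0.0724), sgControl replicate 3 (0.0585) or sg3 replicate 1 (0.0685).

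Markers of cell type moved with the lines as well. Among 13 mammary epithelial markers, 3 were deposited. Krt8 and Krt18, keratins of luminal cells, were highest in sg1, with log2 fold changes of 1.10 and 0.80, and lower in sg3, with -0.22 and -0.33. Krt19, another keratin, was at 182 ± 31.6 in sg3 and 402 ± 31.7 in sg2, against 495 ± 65.7 in sgControl and 622 ± 70.8 in sg1 (SD, n = 3). The value of Krt19 with sg2, -0.29 on the log2 scale, was at an adjusted p of 0.0483 and of 0.0551 with the replicate block. This call was lost in 10 of 20 alternatives, at adjusted p up to 0.176, which include no trend (0.0918) and leaving out sgControl replicate 1 (0.125), sgControl replicate 3 (0.173), sg1 replicate 1 or 2, any sg2 replicate, or sg3 replicate 1. Krt19 with sg1, at 0.33, lost its call in 6 of 20, namely the 3 other scalings (0.12 to 0.19) and without sgControl replicate 2, sg1 replicate 1 or sg1 replicate 2. The fall of Krt19 with sg3, by 1.44, was kept in all 20. Of 14 markers of fibroblasts, endothelium and blood cells, Cd68, a macrophage and lysosome gene, was the 1 deposited, at 305 ± 22.0 in sg1, against 135 ± 28.2 in sgControl, 161 ± 7.63 in sg2 and 148 ± 10.2 in sg3 (SD, n = 3). The part of these differences between lines in the values of the zinc finger genes was not tested.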

How the data were processed

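RNA sequencing of 12 libraries of 6DT1 cells was analysed. The deposited values are a signal: estimated counts per gene, divided by the authors by 1 size factor for each library. The study's methods name median-ratio normalization in a passage on alignment to the human genome, and no source used here describes this mouse table. The unit was therefore read from the low values, since 79.8% to 85.0% of those under 100 reads lay within 0.05 reads of a multiple of the library's smallest step. Per the labels, the submitters' processing notes name STAR 2.7.8a, Partek and DESeq2. Build, annotation and counting for mouse are not given in the sources used here. The table was limited beforehand to genes that differ between edited lines and control, and 0 columns lacked a sample. Estimated reads in the listed genes were 1917222 to 2780515 per library. The total depth is unknown, and the counting interval of the Zfp459 ratio with sg2 covers counting error only. The intervals of log2 fold changes and of differences between lines come from the limma fit. They rest on its SE, that is, on the spread between libraries. A single feature held 16.1% to 32.9% of a library's sum, so scaling to the table total moves with it.

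limma 3.58.1 (R 4.3.3) was fitted to log2(value + 1) over all 982 genes, 4 groups and 12 libraries, with a trend and robust estimates. This scale understates the change of low genes. Tests were two-sided, with Benjamini-Hochberg adjustment over all genes and a threshold of 0.05. Contrasts set each guide against sgControl and asked whether sg1, sg2 and sg3 were equal. The fit was also run on simulated data in which a minority of genes changed, and in sg1 only. That setting is unlike this table, so the run does not bear on the calls above. Symbols matched 972 genes (GENCODE M21, GRCm38), and fingers and domains were read from its coding sequences. Coordinates are given only for printed sequences, since the authors' build may be another.

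The members and lists were chosen with earlier results of these data known. Every member is named. Library values are given for members called in the same direction with all 3 guides and for the 3 with the smallest p among the lines, and the others are given by means. Other genes are named only from the lists or as neighbours within 1 Mb. Replicate numbers were checked for pairing: the correlations of same-numbered deviations from the group means were 0.199 to 0.238 between sgControl and sg1, 0.122 to 0.164 between sgControl and sg2, and -0.0786 to -0.00383 between sgControl and sg3. Between edited lines they were -0.0317 to 0.324 (sg1 and sg2), -0.0221 to 0.192 (sg1 and sg3) and -0.0636 to 0.165 (sg2 and sg3). Every pair of sgControl with sg1 and with sg2 thus exceeded 0.1, but those between other lines did not all do so, and no label states a shared batch. The alternatives were other pseudocounts, a filter, 3 scalings, no trend, a replicate block and each library left out. The 3 scalings use only the deposited genes, all chosen for a difference, so they can also remove a shift that these genes share. Which scaling is nearest to the true levels was not tested.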

Additional observations from a re-analysis of the deposited data

Results flagged for a closer look

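The test of equality of the 3 edited lines (limma, adjusted p) passed for 9 of the 12 zinc finger genes, a share like the 75.3% of all deposited genes that passed. Zfp37, Zfp598 and Zscan22 did not pass. The adjusted p was 6.96e-13 for Zfp518b, 8.7e-09 for Zfp704, 0.000436 for Zfpm1 and 5.07e-07 for Zfp651, of which the first 3 were lowest and Zfp651 highest in sg1. It was 4.37e-09 for Zfp422 and 3.86e-06 for Zfp979, both lowest in sg3. It was 1.12e-07 for Zfp459, lowest in sg2 and highest in sg3, and 4.11e-07 for Zfp239, which was low in sg1 and sg2 alike. It was 0.0151 for Zfp365, highest in sg1, and that value did not pass under the 3 other scalings (0.0768 to 0.109) or without sg1 replicate 1 (0.0622) or sg1 replicate 3 (0.0576). Each line is 1 clone, so guide and clone cannot be told apart.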

How the results depend on the processing

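When each of the 12 libraries was left out in turn, the members called with each guide numbered 9 to 11 (sg1), 8 to 11 (sg2) and 7 to 9 (sg3), and 8 to 9 differed among the lines, a count that was 10 under median-of-ratios scaling. The members called in the same direction with all 3 guides numbered 7 and ranged from 3 to 7, with 3 without sgControl replicate 1 and 4 without sgControl replicate 2. Of the values of single genes, 1761 kept direction and side of the threshold over 20 alternatives, 116 no longer passed, 15 came to pass and 4 changed sign. Under table-total scaling Reep3 was -0.0044 with sg1 and -0.083 with sg2, and neither passed. Zfp651 with sg3 was 0.074 without sgControl replicate 1 and 0.020 without sg3 replicate 3, within a range of -0.078 to 0.074 over the libraries left out, and passed the test in none. The calls of Zfp979 and Zfp704 with all 3 guides were kept in all 20. With the replicate block, 11, 12 and 8 members were called with sg1, sg2 and sg3, and 9 among the lines: it added Zfpm1 with sg2 (adjusted p 0.0254), ended Krt19 with sg2 and changed no other call of the members. Other scalings shifted the median log2 fold change of all genes with sg1 from 0.20 to 0.05 (median-of-ratios), 0.06 (upper quartile) and -0.01 (table total), and with sg2 from -0.02 to -0.22 by table total. Zfp459 was left out by the filter at a mean of 50. The cause of these changes was not tested, and total depth, which limits Zfp459 most, is unknown.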
